A study of Tursiops truncatus with 28 samples.

Results

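Described here are 6 loci of the common bottlenose dolphin (Tursiops truncatus) that lie in 2 tight clusters and had higher RNA levels in skin sampled in July 2016 than in skin sampled in June 2017. The clusters were taken by position: every locus was kept that lies inside 1 of 2 fixed windows, on scaffolds NW_017842545.1 and NW_017843503.1, and averages 1 FPKM or more across the 28 libraries. FPKM is the count of sequenced fragments scaled to transcript length and to the mapped fragments of the library. The rule found 6 of the 24091 loci of the table, or 6 of the 13192 loci at or above that level. The windows were chosen by the log2 differences of July 2016 from June 2017 at neighbouring loci, so the comparisons of July 2016 with the 2017 sessions are given as a description, with no test.

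The skin was archived during health assessments of dolphins in Barataria Bay, Louisiana, and each of the 28 libraries carries its own animal identifier. The July 2016 session gave 9 libraries, all female. The June 2017 session gave 11, of which 3 were male, and the September 2017 session gave 8, of which 3 were male. The year and the month of sampling cannot be told apart for July 2016. No treatment, age or body site is given in the labels used here. Loci are given by scaffold and position, with no gene name, so the genes they hold and the cell types they mark were not analysed here.

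Cetacean skin is a thick, hairless epidermis over a dermis and blubber, and its outer cells are shed and replaced quickly. Neighbouring genes often lie in a shared stretch of chromatin, and an annotation can also list parts of a single transcript as separate loci. Fragments that fall where intervals overlap have to be divided between the loci, and without strand those of a locus and of its antisense partner cannot be told apart. In bulk tissue, a change in the number of cells of a type and a change in RNA per cell cannot be told apart.

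The first cluster spans 34968 bases of scaffold NW_017842545.1 and holds 3 loci. Locus A lies at positions 5495059 to 5504573, and locus B begins 3266 bases further on, at positions 5507840 to 5530026. Locus C, at positions 5510100 to 5515999, lies wholly inside the interval of locus B and covers 26.6% of it. Locus A overlaps no other locus of the table. Its mean over all libraries was 36.1 FPKM, above that of 79.2% of the loci at or above the filter, against 9.56 FPKM in locus B and 6.23 FPKM in locus C.

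The second cluster spans 112420 bases of scaffold NW_017843503.1. Locus D lies at positions 7899254 to 7937363, locus E at positions 7948133 to 7971519 and locus F at positions 7995437 to 8011673. These 3 loci do not overlap each other: 10769 bases separate D from E and 23917 bases separate E from F. All of them lie inside a single very long locus of 215702 bases, at positions 7853765 to 8069466, which is not a member because it reaches beyond the window. Loci D and E were low, with means of 2.32 and 2.35 FPKM, the members nearest to the limit of 1 FPKM, while locus F held 11.0 FPKM. The only other locus inside the window, at positions 7980677 to 7990207 between E and F, fell below that limit with a mean of 0.107 FPKM. Its levels were 0.155 ± 0.0792 FPKM over the July 2016 libraries, 0.0725 ± 0.0695 FPKM over those of June 2017 and 0.0996 ± 0.0696 FPKM over those of September 2017 (SD; n = 9, 11 and 8).

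Library-wide measures overlapped between the sessions. Relative depth, estimated from the spacing of low values because reads per library are unknown, averaged 1.04 ± 0.173 over the July 2016 libraries, 0.924 ± 0.142 over those of June 2017 and 1.11 ± 0.187 over those of September 2017 (SD). The mitochondrial loci of at least 500 bases took 3.04%, 2.92% and 3.37% of summed FPKM in these sessions. The 10 most abundant loci of each library took 26.3 ± 4.36% of it in July 2016, 29.4 ± 5.21% in June 2017 and 26.6 ± 2.66% in September 2017 (SD). The highest share was 41.0%, in June 2017. The depth behind each single value is unknown, so no counting interval is given.

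In the first cluster, locus A was the most abundant member. Its lowest, median and highest values were 34.6, 53.23 and 67.8 FPKM in July 2016, 14.8, 28.0 and 40.7 FPKM in June 2017, and 21.0, 28.7 and 47.7 FPKM in September 2017. The sessions overlapped: 2 of the 11 June libraries and 2 of the 8 September libraries lay above the lowest July library. On the log2(FPKM + 1) scale, with sex in the model, July 2016 exceeded June 2017 by 0.95 (SE 0.194) and September 2017 by 0.68 (SE 0.215).

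Locus B held 8.24, 12.7 and 17.2 FPKM at its lowest, median and highest in July 2016. In June 2017 these values were 2.71, 6.32 and 12.8 FPKM, and in September 2017 they were 7.64, 9.50 and 14.7 FPKM. Only 1 June library, June 2017 female 7, lay above the lowest July library, whereas 7 of the 8 September libraries did. The log2 difference of July 2016 was 1.02 (SE 0.170) against June 2017 and 0.41 (SE 0.189) against September 2017.

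Locus C, nested in locus B, was the most uneven of the members. It held 5.65, 10.01 and 16.5 FPKM at its lowest, median and highest in July 2016, 0, 2.99 and 11.6 FPKM in June 2017, and 0, 4.21 and 9.61 FPKM in September 2017. It was listed at 0 in 2 libraries, June 2017 female 8 and September 2017 male 1, in which locus B held 6.01 and 9.03 FPKM. The SD was 33.6% of the mean in July 2016, 86.7% in June 2017 and 70.0% in September 2017. The log2 difference of July 2016 was 1.34 (SE 0.402) against June 2017 and 1.36 (SE 0.445) against September 2017. The ratio of B to C varied widely where C was above 0, with a median of 1.31 over 9 July 2016 libraries, 1.81 over 10 June 2017 libraries and 2.55 over 7 September 2017 libraries. It ran from 0.572 to 5.54 in June 2017 alone, and how fragments were divided between these overlapping intervals is not given.

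**Figure D1:**
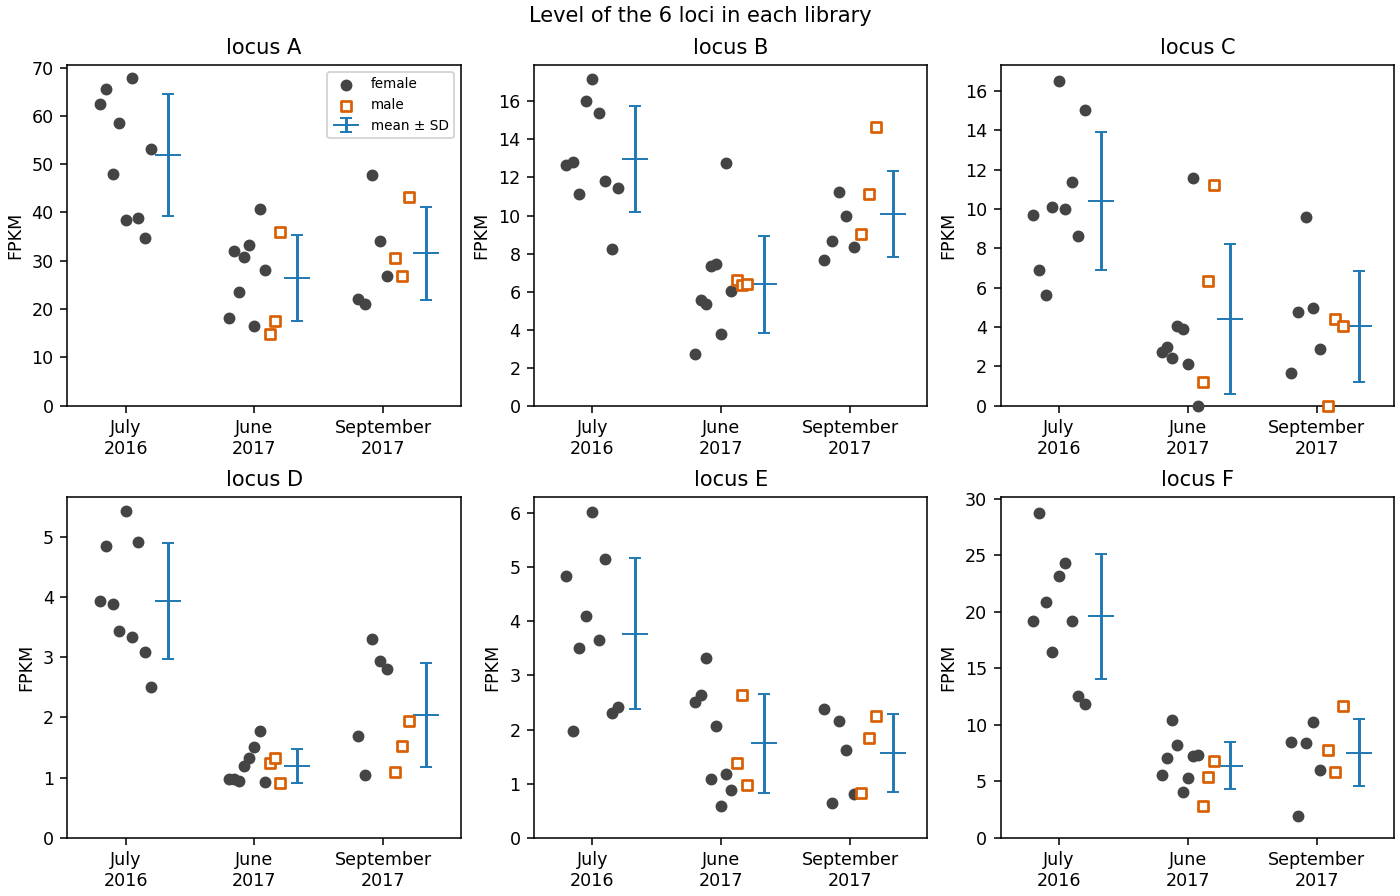
FPKM of loci A to F (vertical axis, linear, from 0) in each library of July 2016, June 2017 and September 2017, with females as filled circles, males as open squares and the mean ± SD of each session beside them. In loci D and F all 9 July libraries lie above all 11 June libraries, while loci A, B, C and E overlap between these sessions.

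In the second cluster, loci D and F did not overlap between July 2016 and June 2017. Locus F held 11.8, 19.2 and 28.8 FPKM at its lowest, median and highest in July 2016. These values were 2.80, 6.76 and 10.5 FPKM in June 2017 and 1.93, 8.06 and 11.6 FPKM in September 2017. Every July library thus lay above every library of either 2017 session. The log2 difference of July 2016 was 1.47 (SE 0.225) against June 2017, the 15th highest of 13192 tested loci, and 1.30 (SE 0.250) against September 2017.

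Locus D was low in every session. It held 2.51, 3.88 and 5.43 FPKM at its lowest, median and highest in July 2016, 0.906, 1.20 and 1.78 FPKM in June 2017, and 1.05, 1.81 and 3.30 FPKM in September 2017. July and June did not overlap, and 3 of the 8 September libraries lay above the lowest July library. Those 3 were September 2017 females 3, 4 and 5, at 3.30, 2.94 and 2.80 FPKM, while September females 1 and 2 held 1.69 and 1.05 FPKM and the September males 1.09, 1.53 and 1.93 FPKM. The log2 difference of July 2016 was 1.103 (SE 0.146) against June 2017 and 0.65 (SE 0.162) against September 2017.

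Locus E overlapped most between sessions in this cluster. It held 1.98, 3.65 and 6.02 FPKM at its lowest, median and highest in July 2016, 0.579, 1.37 and 3.33 FPKM in June 2017, and 0.650, 1.73 and 2.39 FPKM in September 2017. Above the lowest July library lay 5 of the 11 June libraries and 3 of the 8 September libraries. The log2 difference of July 2016 was 0.82 (SE 0.213) against June 2017 and 0.90 (SE 0.237) against September 2017. Because log2(FPKM + 1) compresses low values, the differences of D and E understate their ratios: mean FPKM of locus D was 3.93 ± 0.962 in July 2016 (SD, n = 9), against 1.19 ± 0.280 in June 2017 (SD, n = 11).

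These counts are set beside the whole table. Between July 2016 and June 2017, 5.06% of all tested loci were called higher in July (limma, adjusted p under 0.05 over all tested loci), and 6 of the 6 members were, which the choice of windows had fixed. July 2016 lay above June 2017 with no overlap at 0.364% of tested loci, among them D and F. Between July 2016 and September 2017, 1.3% were called higher in July, among them D, E and F, and 0.318% did not overlap, among them F. This comparison uses the same July libraries that led to the choice of windows, so nothing is read from the members' count in it either. Over all tested loci 69.8% of the calls between July 2016 and June 2017 were higher in July, with 52.1% under median of ratios scaling and 53.4% under quantile normalization. Between July 2016 and September 2017 the share was 66.5%, with 66.0% under median of ratios scaling and 52.7% under quantile normalization, while the members' differences stayed positive under every alternative run.

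Few flanking loci showed a like difference. The windows were chosen by the differences against June 2017, so the contrast of members with flanking loci is a description only. Within 200 kb of the windows 24 other loci passed the filter, 18 around the first cluster and 6 around the second. None of the 18 was called between July 2016 and June 2017, where 5.06% of all tested loci were called higher in July. Of the 18, 2 had an unadjusted p under 0.05, as did 22% of all tested loci. Over the 18, the log2 differences ran from -0.42 to 0.36, with a median of -0.04. Over all tested loci the median was 0.04, and over the 3 members it was 1.02. The nearest flanking loci below locus A, at positions 5450438 to 5456192 and 5444204 to 5450227, differed by 0.06 (SE 0.156) and -0.03 (SE 0.142). Those nearest above locus B that passed the filter, at positions 5573138 to 5590436 and 5610339 to 5615626, differed by -0.05 (SE 0.109) and 0.27 (SE 0.220). Nearer to locus B, the loci at positions 5548272 to 5551258 and 5552686 to 5561303 fell below the filter, with means of 0.732 and 0.558 FPKM.

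Around the second cluster 2 of the 6 flanking loci were called higher in July 2016 than in June 2017, as were 5.06% of all tested loci. The locus at positions 7702178 to 7754530 held 103.9 ± 7.56 FPKM over the July 2016 libraries, 77.1 ± 8.78 FPKM over those of June 2017 and 81.9 ± 4.64 FPKM over those of September 2017 (SD). Its lowest July value, 93.1 FPKM, lay above its highest 2017 value, 90.0 FPKM, and its log2 difference against June was 0.42 (SE 0.0672), the 876th highest. The locus at positions 8095050 to 8177272 held 32.3 ± 2.97, 26.1 ± 3.88 and 26.3 ± 2.41 FPKM in the same sessions, with a log2 difference of 0.29 (SE 0.0823) against June. The locus at positions 7803809 to 7853915, nearest below the cluster, differed by -0.17 (SE 0.0955), that at 8069752 to 8092179, nearest above, by 0.03 (SE 0.0900), and the short one at 7802694 to 7803658 by -0.70 (SE 0.405).

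**Figure D2:**
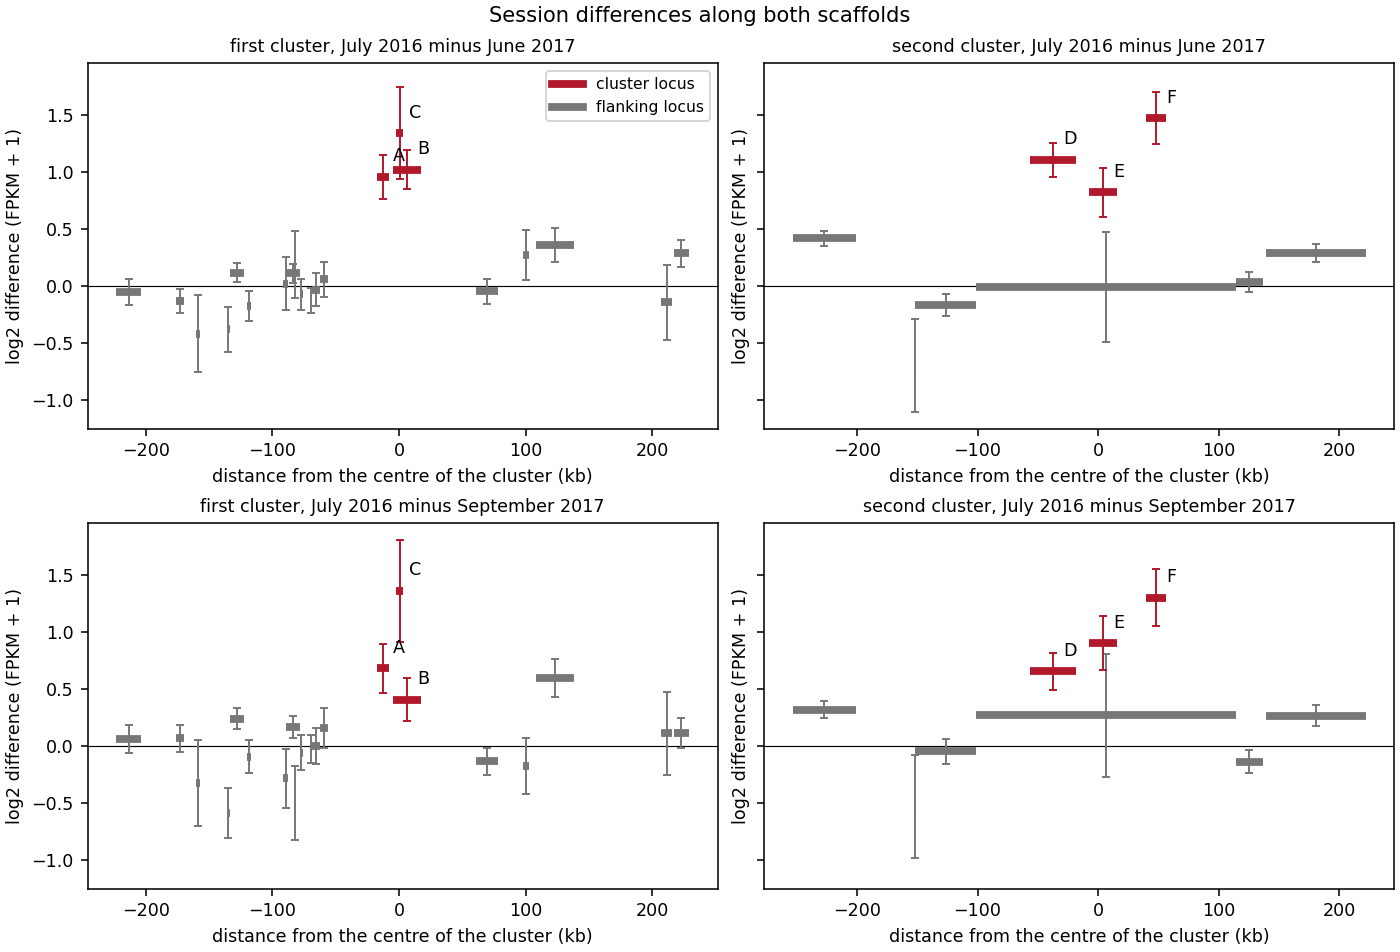
Log2 difference of July 2016 against June 2017 (top) and September 2017 (bottom) of loci A to F (red) and of flanking loci (grey), by distance in kb from the centre of each cluster. Bars give the extent of each locus and whiskers ± SE from the fit. The members lie between 0.82 and 1.47 against June 2017, and the flanking loci between -0.70 and 0.42. The windows were chosen by the differences against June 2017.

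The very long locus that spans the second cluster, counted among the flanking loci, was listed at 0 in 19 of 28 libraries and at values up to 5.39 FPKM in the other 9. Those above 0 numbered 3 of 9 in July 2016, 4 of 11 in June 2017 and 2 of 8 in September 2017, and its log2 difference of July against June was -0.0094 (SE 0.484). In July 2016 locus F averaged 23.2 FPKM (range 16.4 to 28.8) in the 3 libraries with the long locus above 0, against 17.8 FPKM (11.8 to 23.2) in the 6 with it at 0. In those 3 and those 6 libraries, locus E averaged 3.25 and 4.04 FPKM and locus D 3.88 and 3.96 FPKM. In June 2017 D, E and F averaged 1.09, 1.68 and 6.18 FPKM in the 4 libraries with the long locus above 0, against 1.25, 1.79 and 6.49 FPKM in the 7 with it at 0. In September 2017 D, E and F averaged 1.07, 0.735 and 4.83 FPKM in the 2 libraries with the long locus above 0, against 2.37, 1.84 and 8.43 FPKM in the 6 with it at 0. Whether the long locus took fragments from the members was not tested.

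Comparisons that the choice of members did not fix came next. Between September and June 2017, 0.0379% of all tested loci were called, and 0 of the 6 members (limma, adjusted p over all tested loci), with 2 members at an unadjusted p under 0.05, as were 12% of all tested loci. This comparison shares the June libraries with the one that led to the members. Locus B averaged 10.1 ± 2.26 FPKM in September (SD, n = 8) and 6.39 ± 2.55 in June (SD, n = 11), and the log2 difference was 0.61 (SE 0.169, limma adjusted p = 0.124). Locus D averaged 2.04 ± 0.868 FPKM in September (SD, n = 8) and 1.19 ± 0.280 in June (SD, n = 11), and the log2 difference was 0.45 (SE 0.146, limma adjusted p = 0.195). Without June 2017 female 7, the highest June library at loci A, B, C and D, locus B passed the threshold at 0.71 (SE 0.145, limma adjusted p = 0.0459). In that fit 13 of all tested loci were called. This was the lowest limma adjusted p of locus B over the 28 fits without a single library, which ran up to 0.230. The library left out belongs to the June group that led to the members, so nothing is read from this fit. Loci A, C, E and F differed by 0.27 (SE 0.193), -0.02 (SE 0.400), -0.08 (SE 0.213) and 0.17 (SE 0.224).

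Males and females were compared in the same model, with males from 2017 alone. Of all tested loci 0.091% were called, and 0 of the 6 members (limma, adjusted p). Of the tested loci 4.85% had an unadjusted p under 0.05, with 0 members among them. The largest log2 difference, male minus female, was 0.20 (SE 0.180) at locus B, and the lowest was -0.19 (SE 0.155) at locus D, with a limma adjusted p that rounds to 1 for every member. At locus F, 3 June males held 4.99 ± 2.01 FPKM against 6.89 ± 1.97 in 8 June females, and 3 September males held 8.38 ± 2.98 against 7.02 ± 3.22 in 5 September females (SD). The June to September change did not pass a test of its difference between the sexes at any member (limma, adjusted p = 1 for all 6). The largest such difference was at locus C, -1.38 (SE 0.825), with a log2 change of -0.95 in males and 0.43 in females. At locus F the difference had the other sign, 0.73 (SE 0.466). Only 3 males a session limit the precision of these values.

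The July libraries were also compared among themselves, because sampling ran from 11 to 19 July. In the 4 libraries of 15 July or later, against the 5 of 13 July or earlier, 5 of the 6 members were lower on the log2 scale. Locus C was higher, and no member was called. Most loci were lower too: 5495 of 13192 tested loci were higher in the later libraries, and the median log2 difference was -0.04. Of all tested loci 0% were called, and 5.12% had an unadjusted p under 0.05, with 0 members among them. The largest difference was -0.37 (SE 0.320, limma adjusted p = 0.910) at locus F, which held 24.3, 19.2, 12.6 and 11.8 FPKM in the later libraries and 19.2, 28.8, 20.9, 16.4 and 23.2 FPKM in the earlier ones. Every one of these values exceeded the June 2017 maximum of 10.5 FPKM, which restates the lack of overlap at locus F and is not a result of the split.

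The slope on the mitochondrial RNA level of a library was fitted with session and sex in the model. It was called at 14.4% of all tested loci and at 0 of the 6 members (limma, adjusted p), with 26.9% of loci and 1 member, locus C, at an unadjusted p under 0.05. Locus C had the steepest slope, 0.67 per doubling of mitochondrial RNA (SE 0.290, limma adjusted p = 0.130). The other 5 members had slopes from -0.11 to 0.15. Among flanking loci 3 of 24 were called, including that next to locus A at positions 5450438 to 5456192, with a slope of 0.45 (SE 0.0880).

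**Figure D3:**
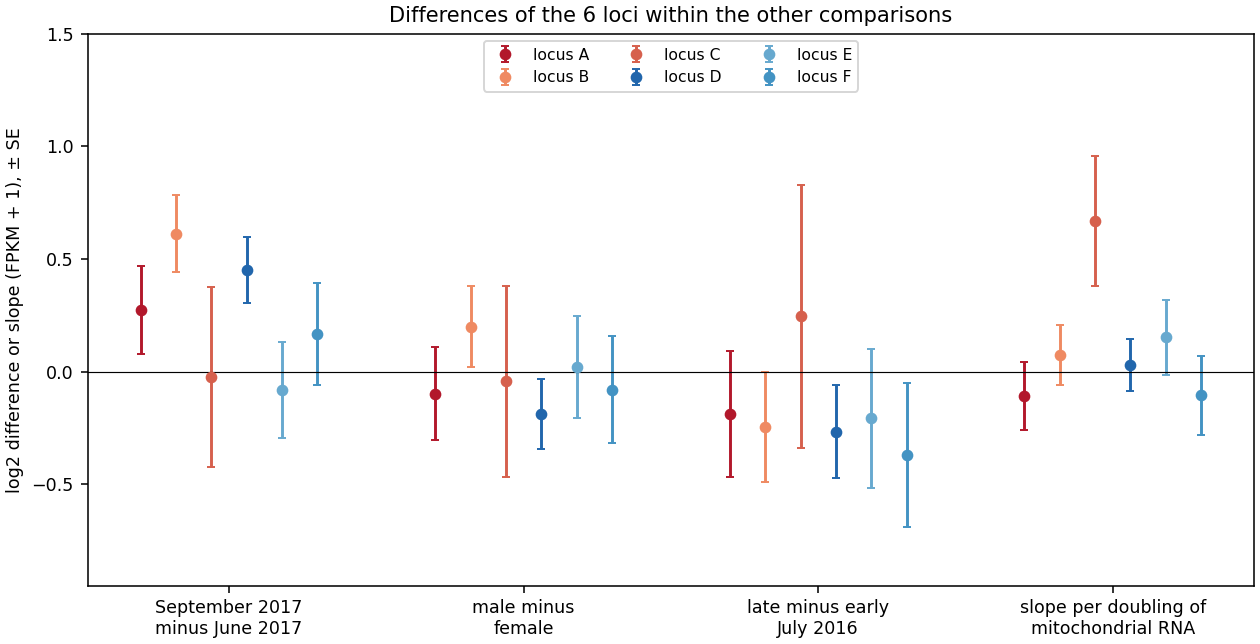
Log2 differences of loci A to F between September and June 2017, between males and females and between late and early July 2016, and their slopes per doubling of mitochondrial RNA, each ± SE from the fit over 28 libraries. No member passed an adjusted p of 0.05 in these comparisons, and locus B between September and June 2017 (0.61) and the slope of locus C (0.67) lie farthest from 0.

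Co-variation was measured after the means of session and sex had been removed, so that the difference between sessions does not enter it. Loci A and B, which do not overlap, varied together over the 28 libraries, with Pearson r = 0.641 and Spearman rho = 0.650. Over 87 pairs of members with each other and with their flanking loci, the permutation p within groups of session and sex, adjusted by the Benjamini-Hochberg method, was 0.00522 for r and 0.00870 for rho. Without the 2 libraries farthest from the median of locus A, June 2017 male 1 and June 2017 female 6, r was 0.638. Of 12894 pairs of neighbouring tested loci in the whole table, 0.954% had a higher r, and their median was 0.0582. Within the July females alone (n = 9) r was 0.418, and within the June females alone (n = 8) it was 0.913. Without June 2017 female 7, which lies highest in both loci among June libraries, r was 0.590 (adjusted permutation p = 0.0435). Co-variation was not computed with the mitochondrial level as a covariate, in the 2017 libraries alone or with the sessions compared alone.

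No other pair passed. Locus C correlated with B at r = 0.425 (rho 0.485, adjusted permutation p = 0.357 for r, 0.189 for rho) and with A at r = 0.318 (rho 0.387, adjusted permutation p = 0.519 for r, 0.464 for rho). In the second cluster r was 0.386 for D and F, 0.344 for E and F and 0.227 for D and E, with adjusted permutation p from 0.464 to 0.634. Without the 2 libraries farthest from the median of locus D, r of D and F was 0.163. Within the July females alone, r was 0.745 for D and F, 0.514 for D and E and 0.237 for E and F. Within the June females alone these values were -0.339, -0.535 and 0.191. For A and C, r was -0.248 in the July females and 0.441 in the June females, and for B and C 0.395 and 0.524. Between the clusters the highest r was that of A and F, 0.510 (rho 0.5003, adjusted permutation p = 0.227 for r and 0.189 for rho), and 8 of the 9 pairs were positive. The mean residuals of the clusters correlated at r = 0.329 (permutation p = 0.0922) and rho = 0.394 (p = 0.0552). All these values come from the same libraries and share their depth and composition.

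Pairs of members were set beside pairs of a member and a flanking locus. In the first cluster the median r of the 3 member pairs was 0.425, against -0.0831 over the 54 pairs of a member with a flanking locus, 21 of which were positive. In the second cluster the median was 0.344 over 3 pairs, against 0.142 over 18 pairs with flanking loci. The ranges overlapped in both clusters. In the first, r ran from 0.318 to 0.641 over member pairs and from -0.498 to 0.533 over pairs with flanking loci. In the second these were 0.227 to 0.386 and -0.331 to 0.441. There D with positions 8069752 to 8092179 (r = 0.441) and F with 8095050 to 8177272 (r = 0.412) exceeded every member pair. Locus C had its highest r, 0.533, with positions 5429870 to 5430980. No pair of a member and a flanking locus passed. The difference between the median r of member pairs and that of pairs with flanking loci was not tested.

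**Figure D4:**
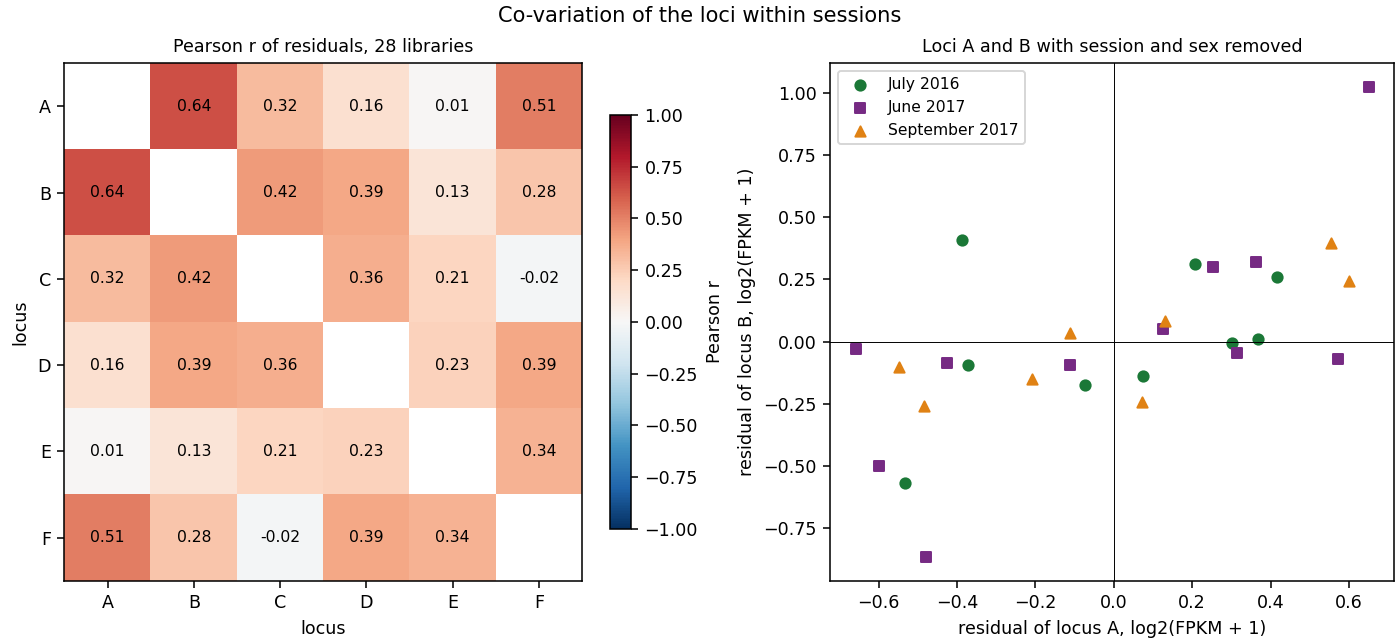
Left, Pearson r between loci A to F over 28 libraries after session and sex were removed; right, residuals of loci A and B on the log2(FPKM + 1) scale, each point a library, coloured by session. The pair A and B has the highest r, 0.641, and E with A and F with C lie near 0.

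The loci most like the mean of each cluster within sessions were sought among all tested loci other than its own members and flanking loci. For the first cluster the closest, at positions 13577004 to 13581757 of scaffold NW_017844288.1, had r = 0.757 and rho = 0.681 among 13171 loci compared. It was followed by positions 2641641 to 2662268 of scaffold NW_017844458.1 (r = 0.750, rho = 0.707) and 20284533 to 20291342 of scaffold NW_017842421.1 (r = 0.688, rho = 0.694). For the second cluster, the closest of 13183 loci were positions 19737317 to 19749980 of scaffold NW_017843542.1 (r = 0.700), 20169060 to 20190668 of scaffold NW_017843440.1 (r = 0.689) and 77810022 to 77873061 of scaffold NW_017842131.1 (r = 0.683). Without the 2 libraries farthest from the median of the cluster, the r of that on NW_017843542.1 was 0.461. These loci were picked as the highest of many, so their r is a description of 28 libraries. Their mean log2 values in July 2016 differed from those in June 2017 by -0.16 to 0.62, without sex in a model. The members were chosen for this difference and theirs were fitted with sex, so the 2 are not compared.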

How the data were processed

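Per the labels' protocols, RNA of archived skin came from column extraction for fatty tissue with DNase treatment, and libraries were directional. Cufflinks 2.2.1, TopHat2 2.1.1, Bowtie, Trimmomatic 0.33 and FastQC 0.1 are listed, without roles, in the submitters' processing notes. The NIST Tur_tru v1 genome served as guide, per the design text. Which annotation and settings were used, and whether strand entered the counting, is not stated there. A single table with a column per library was deposited by the authors, and its values are taken to be FPKM as Cufflinks makes it, since its header names no unit. Intervals in the table start at base 0 and are printed 1-based. The gene table used here describes another assembly and matched 0 of the scaffold names, and no genome sequence of the files' build was used, so no gene name or sequence is given.

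Columns were matched by exact title and sessions taken from sampling dates. The title of July 2016 female 6 carries another year than its date. Values were log2(FPKM + 1). Loci averaging 1 FPKM or more were fitted with limma 3.58.1 (R 4.3.3; session and sex, empirical Bayes with trend and robust settings), two-sided, with Benjamini-Hochberg adjustment over 13192 loci and a threshold of 0.05. July was split by sampling day, and the mitochondrial level is log2 of the summed FPKM of 12 loci of at least 500 bases. Co-variation used residuals and 100000 permutations of libraries within groups of session and sex, two-sided. Fits were tested on simulated data. Flanking loci are those at least partly within 200 kb. All members are named, as are the 2 nearest flanking loci on each side, those called between July 2016 and June 2017, and the 3 loci most like each cluster. The members, windows and lists were chosen with earlier results of these data known. Gene markers of cell types were not used, because loci carry no names. Alternatives were the pseudocount, the filter, the scaling, the libraries, the covariates and the overlapping loci, and a block by sampling day for males and females that was chosen after seeing the data. Figures were drawn with matplotlib 3.10.9.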

Additional observations from a re-analysis of the deposited data

Results flagged for a closer look

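Among the 18 sets of locus and group with 5 to 9 libraries, 2 had a library far from the others, where chance gives about 1 in 20. Both were June 2017 female 7. At locus B it held 12.8 FPKM, against 7.44 FPKM in the next highest of the 8 June females, and at locus C it held 11.6 FPKM, against 4.05 FPKM in the next. Locus C lies inside locus B, so these values are not independent. At locus A, which overlaps neither, the same library was the highest June library at 40.7 FPKM.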

How the results depend on the processing

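The log2 differences of July 2016 from either 2017 session were positive in all 466 recomputed values. Calls at members there are descriptions, since these libraries led to the windows, and say nothing of stability. The count of 6 members called between July 2016 and June 2017 ran from 5 to 6 without single libraries. The locus lost was C, when any of 13 libraries was left out (July 2016 females 1 and 4 to 9, June 2017 females 1, 2, 3, 5, 6 and 8), and also with a pseudocount of 0.1, with no filter, under median of ratios scaling and with relative depth as a covariate. The count of 3 between July 2016 and September 2017 ran from 1 to 3. There E was lost when any of 13 libraries was left out, D when any of 5 was (July 2016 females 2, 5 and 7, September 2017 females 1 and 2), and F in no case. That count was 1 with a mean of at least 5 FPKM (where D and E are not tested), 1 in females alone and 1 with the sessions compared alone, and it was 4 with the mitochondrial level as a covariate, where C was added. Without loci that overlap another, only locus A could be tested, and the counts were 1 against June and 0 against September. Between September and June 2017 the count of 0 ran from 0 to 1 without single libraries. The median r of the first cluster, 0.425, was 0.305 with a pseudocount of 0.1 and 0.528 in females alone, and ran from 0.278 to 0.509 without single libraries. That of the second, 0.344, ran from 0.138 to 0.380. The r of A and B passed in every alternative that computed it, from 0.590 to 0.719 without single libraries. Over all tested loci, the calls between July 2016 and June 2017 numbered 955 and ran from 733 to 1011 without single libraries and from 604 to 1290 under the other alternatives. Those between July 2016 and September 2017 numbered 257 (145 to 292 and 98 to 332) and were 169, 160, 152 and 145 without September 2017 females 2, 3, 4 and 5. Those between September and June 2017 numbered 5 (0 to 26, moved by any of 14 libraries, and 0 to 18), and those between males and females 12 (6 to 15 and 6 to 14), with 6 without June 2017 male 3. Signs turned at uncalled values. Between September and June 2017, C was 0.43 and F was -0.074 in females alone, and C was 0.15 when the 3 libraries most dominated by their top 10 loci were left out. The mitochondrial slopes of A and F were 0.017 and 0.0015 without those 3 libraries, and those of A and D were 0.041 and -0.017 with relative depth as a covariate. Without single libraries, the September minus June differences of C and E ran from -0.23 to 0.26 and from -0.15 to 0.011. The male minus female differences of A, C, E and F ran from -0.23 to 0.054, from -0.40 to 0.36, from -0.085 to 0.12 and from -0.24 to 0.11. The slopes of B and D ran from -0.043 to 0.14 and from -0.035 to 0.080. The causes were not tested. No paired analysis was possible because the labels pair no single samples. With sampling day as a block for males and females, chosen after seeing the data (both sexes on 5 of 15 days), 0 of 6 members were called (limma, lowest adjusted p = 0.880; 0 at an unadjusted p under 0.05), C was 0.071 and E was -0.040.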
